A study of Mus musculus with 16 samples.

Results

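Gene expression in the vomeronasal organ (VNO) of males was compared between 4 High Runner (HR) lines, bred for high voluntary wheel running, and 4 non-selected Control lines of Hsd:ICR mice. The comparison used the table of read counts that holds the 8 male libraries, 8 of the 16 libraries of the series: HR lines 3, 6, 7 and 8 and Control lines 1, 2, 4 and 5, with 1 library per line. Each library came from 1 pool of VNOs of 3 mice, 12 weeks old and from generation 88 of the selection experiment. The mice carried no transgene and received no treatment in the labels, so linetype was the only labelled difference between the groups. A pool averages its 3 mice, and the lines were bred separately, so a difference between 2 pools also holds the difference between 2 lines. The question asked of these libraries was which genes differ in level between HR and Control males and how far each difference is shared by the 4 lines of a linetype.

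The VNO is a sense organ at the base of the nasal septum that detects pheromones and other chemical signals of conspecifics and predators. Its sensory neurons lie in an apical layer, which uses V1R receptors (*Vmn1r* genes) with the G protein subunit Gαi2, and in a basal layer, which uses V2R receptors (*Vmn2r* genes) with Gαo. A few neurons use formyl peptide receptors (*Fpr* genes). A neuron transcribes 1 or a few receptor genes, so the level of a receptor in the tissue depends both on how many neurons chose it and on the RNA in each of them. In these bulk libraries, fewer cells of a type and less RNA per cell cannot be told apart.

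Counts on genes ranged from 34588784 to 46384480 in HR libraries and from 28962284 to 67406690 in Control libraries. Exact two-sided permutation tests of 7 measures of the libraries, among them the totals, the unmapped, unassigned and ambiguous shares of reads and the share of the 10 most abundant genes, gave *p* from 0.457 to 0.914 between linetypes (adjusted *p* = 0.914 for each, with 0.0286 the smallest *p* that 4 against 4 allows). Values in CPM are counts relative to the TMM-normalised library size with no term for gene length, so they compare libraries and not genes. The marker of mature sensory neurons *Omp* had 2044 ± 399.8 CPM in HR and 2146 ± 299 CPM in Control males (SD, n = 4 lines each), and *Gnao1* and *Gnai2* had 417 ± 39.9 and 1158 ± 194 CPM in HR males against 396 ± 32.4 and 1257 ± 254 CPM in Control males. *Trpc2*, the channel of vomeronasal transduction, and the overlapping entry *Xntrpc* were both listed at 0 counts in all 8 libraries and gave no check of the tissue. The Y-linked gene *Ddx3y* had 43.2 to 70.8 CPM in HR and 43.2 to 59.9 CPM in Control libraries, while *Xist*, the RNA of the inactive X chromosome, had 0.349 to 0.862 and 0.379 to 3.81 CPM, against 1195 to 1754 and 901 to 1759 CPM in HR and Control females.

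The libraries fell into 2 sets that crossed the linetypes. The list of secreted lipocalins, odorant- and pheromone-carrying proteins of the nasal and vomeronasal glands such as *Obp2a*, held 36 genes, of which 12 were tested. All 36 summed to 85207 to 175204 CPM in Control lines 4 and 5 and HR lines 3 and 6. In Control lines 1 and 2 and HR lines 7 and 8 they summed to 8972 to 19917 CPM. Each set held 2 lines of each linetype, so the summed level did not follow linetype. The list of endothelial and mural genes went the same way, with 781 to 1360 CPM in the first set and 299 to 390 CPM in the second. The transduction genes had the opposite order and summed to 12619 to 14083 CPM in the first set and to 15735 to 17313 CPM in the second. Fits within each set gave the same sign for all 80 named genes with an unadjusted *p* under 0.05 in the 8 libraries. These genes were chosen in the same 8 libraries, so the shared sign was largely fixed by that choice. For 42 of them the log2 fold changes of the sets differed by more than 1.5 times.

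**Figure D1:**
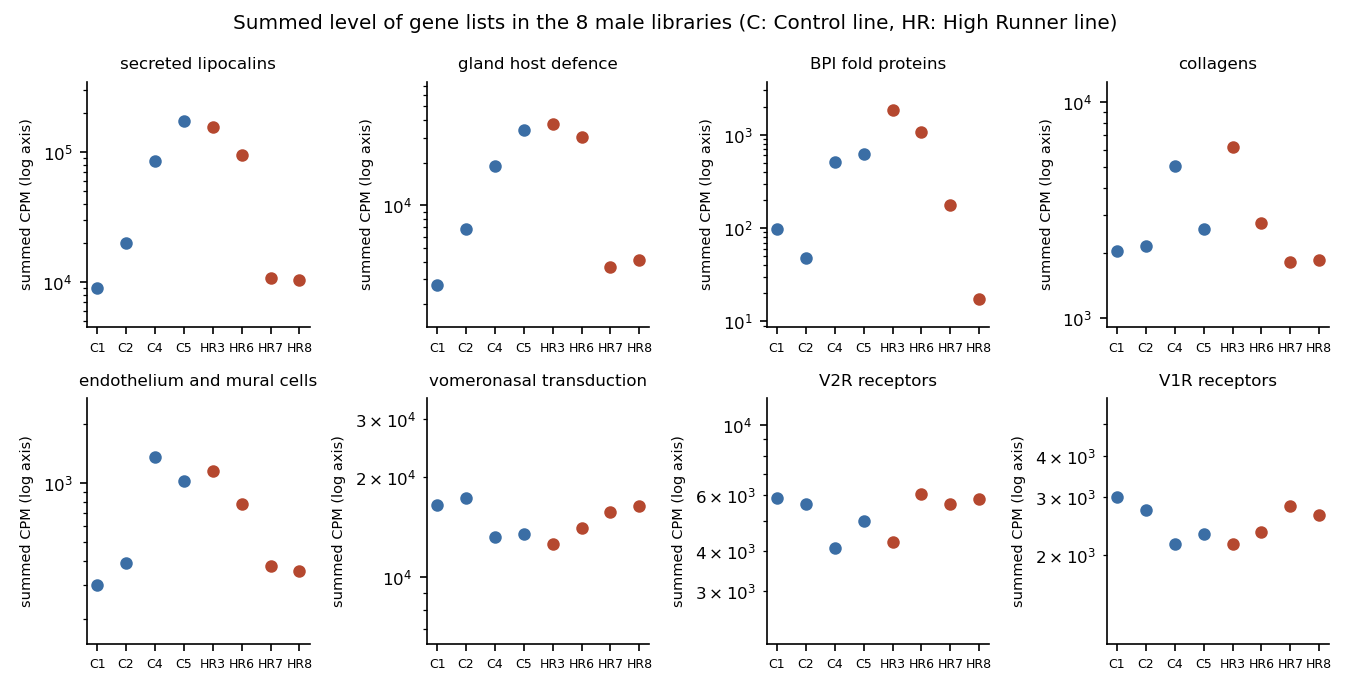
Summed CPM of 8 gene lists (log axis) in each of the 8 male libraries, Control lines in blue and HR lines in red. Secreted lipocalins lay at 85207 to 175204 CPM in Control lines 4 and 5 and HR lines 3 and 6 and at 8972 to 19917 CPM in the other 4 libraries, while the *Vmn1r* genes lay at 2152 to 2987 CPM and the transduction genes at 12619 to 17313 CPM over all 8.

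HR and Control males differed by small amounts in most genes and by large amounts in few. Levels that kept the 2 linetypes apart in males belonged to *Upb1*, an enzyme of pyrimidine breakdown, to vomeronasal receptors on chromosomes 5 and 17, and to single genes such as *Zfp677* and *Rhbdl3*. Of these receptors *Vmn2r11* and *Fpr3* were higher and *Vmn2r16*, *Vmn2r99* and *Vmn1r236* lower in HR males. *Vmn2r8* was also higher without overlap, but its unadjusted *p* was over 0.05 in edgeR. Of the listed genes of the signalling chain below the receptors and of neuronal maturation, 0 had an unadjusted *p* under 0.05.

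Between HR and Control males, 0 of 16361 genes tested (0%) had an adjusted *p* under 0.05 in edgeR's quasi-likelihood test, and the smallest adjusted *p* was 0.999998. At an unadjusted *p* under 0.05 the test gave 184 genes (1.12%), 90 higher in HR males (0.55%) and 94 lower (0.575%). Groups that did not overlap in CPM were found for 133 genes, 55 with all HR lines above all Control lines (0.336%) and 78 with all HR lines below (0.477%). Chance alone gives an unadjusted *p* under 0.05 at a rate of 0.05, and 4 and 4 values without overlap, in either direction, at a rate of 0.0286. As shares of the 16361 genes, both counts were below these rates. DESeq2 on the same genes gave an adjusted *p* under 0.05 for 10 genes (0.0611%), 4 higher in HR males (*4833418N02Rik*, *Optn*, *Upb1* and *Zfp677*) and 6 lower (*5031434O11Rik*, *Mir6236*, *Rhbdl3*, *Rn45s*, *Vmn1r236* and *Zfp932*). On simulated counts of 16361 genes, 200 of them changed, DESeq2 called 53 unchanged genes at this threshold and edgeR 4. Of the genes changed by 1 on the log2 scale, edgeR recovered 60% and DESeq2 69%. Of those changed by 2, edgeR recovered 76% and DESeq2 85%. The spread of the simulated counts was the one estimated by edgeR. The median log2 fold change over all genes was -0.0015, and the median of its size was 0.065. The genes below are therefore described by their levels in each line, and none of them passed the adjusted threshold of the edgeR test. The females of the same 8 lines, pooled and sequenced separately, were used to see how each line's value came out in a second pool.

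The largest difference of any gene with an unadjusted *p* under 0.05 was that of *Upb1*, the gene of β-ureidopropionase, the last enzyme in the breakdown of the pyrimidines uracil and thymine. *Upb1* (ENSMUSG00000033427.14) lies at chr10:75401115-75441679 on the plus strand of GRCm38 and overlaps *Gucd1* on the other strand. Its level was 0.0279, 0.0722, 0.130 and 0.193 CPM in Control lines 1, 2, 4 and 5 and 0.302, 14.98, 12.6 and 9.91 CPM in HR lines 3, 6, 7 and 8. HR lines 6, 7 and 8 were far above all other libraries, and HR line 3 lay just above the Control lines. The log2 fold change was 6.64 (standard error 1.18, unadjusted *p* = 0.000412, edgeR), and DESeq2 gave an adjusted *p* of 1.66e-08. Without HR line 3 the edgeR test gave a log2 fold change of 7.06 and an adjusted *p* of 0.0127. Female pools repeated the values of their lines, with 0.128, 0.105, 0.181 and 0.0646 CPM in the Control and 0.225, 17.6, 15.1 and 4.84 CPM in the HR lines, HR line 3 again at the level of the Control lines. The promoter window of *Upb1* in RefSeq (GRCm38.p6, chr10:75406661-75406960, plus strand, from 250 bases before to 50 bases after the start) is shown because this gene had the largest difference. RefSeq places the start within the gene as GENCODE draws it, and capitals mark the 2 matches to CCAAT or its reverse complement.
*Upb1*: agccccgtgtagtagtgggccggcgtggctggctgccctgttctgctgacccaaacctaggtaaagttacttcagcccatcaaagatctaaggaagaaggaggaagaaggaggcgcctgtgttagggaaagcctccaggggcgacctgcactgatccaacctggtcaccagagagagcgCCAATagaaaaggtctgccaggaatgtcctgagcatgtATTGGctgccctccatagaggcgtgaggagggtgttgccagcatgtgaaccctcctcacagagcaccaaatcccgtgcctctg
Of 32817 promoter windows of this length in RefSeq, 37.4% hold CCAAT on either strand, 13.6% TATAAA and 35.6% GGGCGG, and the *Upb1* window holds neither of the last pair. A match of these letters describes the reference sequence and not the sequence of any of the 8 lines.

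Among the other genes higher in HR males, the small unadjusted *p* values belonged to genes of moderate change in all 4 HR lines. *Zfp677*, which encodes a KRAB zinc finger protein (chr17:21383748-21399265), had 12.9, 15.5, 11.4 and 11.3 CPM in Control lines 1, 2, 4 and 5 and 18.2, 19.4, 20.9 and 20.96 CPM in HR lines 3, 6, 7 and 8. The groups did not overlap, and the log2 fold change was 0.64 (standard error 0.12, unadjusted *p* = 0.000688, edgeR, DESeq2 adjusted *p* = 0.0147). In females the groups did not overlap either, with 10.8 to 16.2 CPM in Control and 17.9 to 24.1 CPM in HR lines. *Optn*, the gene of the autophagy receptor optineurin, had 13.9, 19.9, 16.8 and 18.2 CPM in the Control lines and 26.6, 24.4, 28.0 and 23.5 CPM in the HR lines. All HR males were above all Control males (log2 fold change 0.58, standard error 0.12, DESeq2 adjusted *p* = 0.0466), but the female pool of Control line 5 had 30.6 CPM, within the 24.9 to 37.3 CPM of HR females. The non-coding *4833418N02Rik* had 3.36 to 4.54 CPM in Control and 6.12 to 7.12 CPM in HR males (log2 fold change 0.65, standard error 0.14, DESeq2 adjusted *p* = 0.0397).

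*Cplx1* and *Mgst2* were low in all libraries and higher in every HR line of both sexes. *Cplx1* encodes complexin 1, which binds the SNARE complex at the synapse, and had 0.363, 0.253, 0.286 and 0.309 CPM in Control males and 1.42, 0.954, 0.803 and 0.548 CPM in HR males, where a library held 8 to 61 of its counts. Its log2 difference was 1.61 in males (standard error 0.33, unadjusted *p* = 0.00114) and 1.73 in females (standard error 0.26, unadjusted *p* = 0.000119, edgeR), and within the male sets with more and with less lipocalin it was 1.99 and 1.13. *Mgst2*, a microsomal glutathione S-transferase that also makes leukotriene C4, had 0.307, 0.487, 0.963 and 1.12 CPM in Control males and 1.74, 2.77, 2.43 and 2.96 CPM in HR males. Here HR lines 6, 7 and 8 lay together and HR line 3 lay between them and the Control lines in both sexes, with 1.84, 3.11, 2.73 and 2.85 CPM in the female pools of HR lines 3, 6, 7 and 8. The log2 fold change of *Mgst2* was 1.81 in males (standard error 0.42, unadjusted *p* = 0.00213), and it was 1.11 within the 4 libraries with more lipocalin and 2.78 within the 4 with less. Among the 15 genes with the smallest *p* that were higher in HR males without overlap, the others were *9430018G01Rik*, *D030025P21Rik*, *Shc3*, *Lmbrd1*, *Cpa3*, *Plekhg3*, *Tor1aip1*, *Mtap*, *Zfp830* and *Vmn2r11*, of which the first 2 are antisense RNAs. Each of the 30 genes named for a small *p* and no overlap, 15 higher and 15 lower, kept an unadjusted *p* under 0.05 in edgeR without any 1 library, the largest being 0.0490 for *Mtap* without Control line 4. They were chosen for a small *p* and no overlap in these same libraries, so this follows in large part from the choice. *Mtap*, the methylthioadenosine phosphorylase of methionine salvage, had 24.4 to 38.7 CPM in Control and 38.9 to 49.8 CPM in HR males, and *Lmbrd1*, a protein of lysosomal cobalamin transport, 74.3 to 82.2 and 82.7 to 109 CPM. *Cpa3*, a protease of mast cell granules, had 6.70 to 8.62 CPM in Control and 9.29 to 10.7 CPM in HR males (log2 fold change 0.36, standard error 0.11).

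Of the genes lower in HR males, *Rhbdl3*, a member of the rhomboid family of intramembrane proteases (chr11:80300912-80355955), had the smallest unadjusted *p*. It had 30.7, 25.4, 32.4 and 24.9 CPM in Control and 16.9, 16.6, 21.2 and 18.2 CPM in HR males, with no overlap (log2 fold change -0.64, standard error 0.12, unadjusted *p* = 0.000722, edgeR, DESeq2 adjusted *p* = 0.0147). The female pool of Control line 5, at 14.99 CPM, was below all HR females (16.8 to 18.4 CPM), so that in females the groups overlapped. *Zfp932*, a KRAB zinc finger gene, had 14.2, 12.9, 11.6 and 12.4 CPM in Control and 9.20, 8.55, 7.54 and 9.46 CPM in HR males (log2 fold change -0.56, standard error 0.11, DESeq2 adjusted *p* = 0.0181). The non-coding *5031434O11Rik* had 3.64, 3.00, 4.22 and 3.48 CPM in Control and 2.14, 1.05, 1.42 and 0.971 CPM in HR males, and the groups were apart in females too, at 3.04 to 5.15 and 0.862 to 1.95 CPM. Its log2 fold change was -1.36 in males (standard error 0.28, unadjusted *p* = 0.00102) and -1.56 in females (standard error 0.28). It overlaps *Setd7*, a lysine methyltransferase gene, on the other strand, and the sources used here do not say whether counting used the strand. *Setd7* itself had 169 to 181 CPM in Control and 112 to 158 CPM in HR males, a log2 fold change of -0.42 (standard error 0.11), or -0.27 within the set with more lipocalin and -0.59 within the set with less. *Nudt9*, an ADP-ribose pyrophosphatase, had 59.9 to 69.1 CPM in Control and 38.2 to 54.7 CPM in HR males, while females gave a log2 fold change of -0.22 (standard error 0.22). Among the 15 genes with the smallest *p* that were lower in HR males without overlap, those not described elsewhere here were *Rmi2*, *Myb*, *2700094K13Rik*, *Spata33* and *Vps36*, with log2 fold changes from -0.74 to -0.24. *Myb*, a transcription factor of dividing progenitor cells, had 19.1 to 24.4 CPM in Control and 16.3 to 18.2 CPM in HR males.

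**Figure D2:**
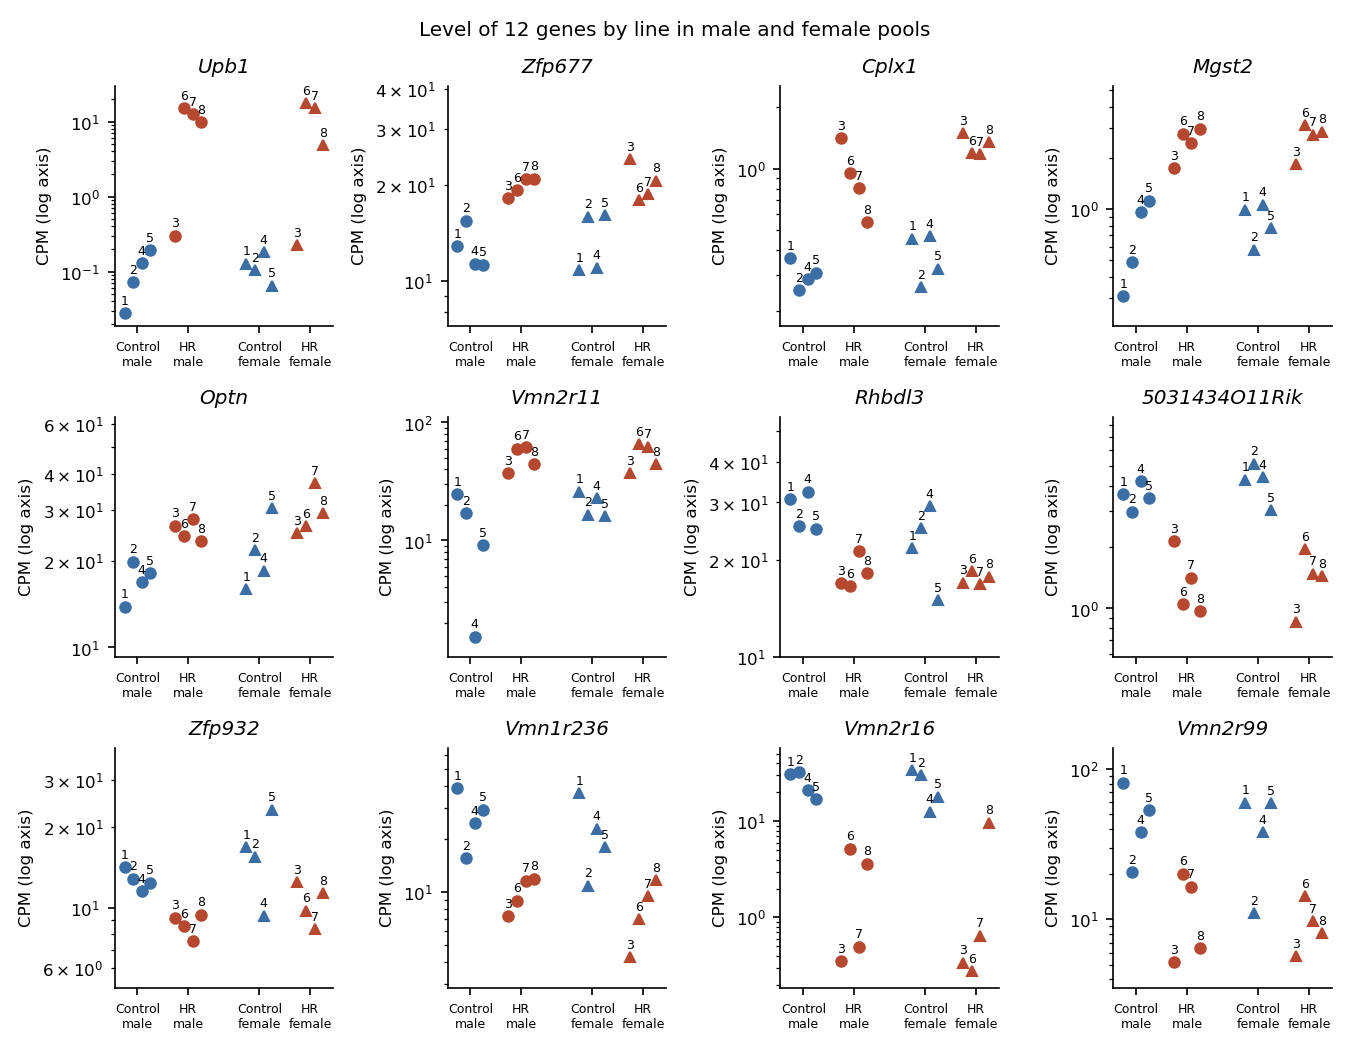
CPM (log axis) of 12 genes in each line, with males as circles, females as triangles, Control lines in blue, HR lines in red and line numbers above the points. In males the groups do not overlap for any of the 12 genes, and in females they overlap for *Optn*, *Rhbdl3*, *Zfp932*, *Vmn1r236* and *Vmn2r99*.

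The receptors of the vomeronasal neurons were under the unadjusted threshold more often than other genes. Of the 336 receptor genes in the table, 277 passed the filter on low counts, and 14 of them (5.05%) had an unadjusted *p* under 0.05, 8 higher and 6 lower in HR males, against 1.06% of the other genes. By family these were 4 of 155 *Vmn1r* genes, 9 of 118 *Vmn2r* genes and 1 of 4 *Fpr* genes. Chance alone gives an unadjusted *p* under 0.05 at a rate of 0.05. The share of receptors was near that rate, and the share of other genes was below it. Of the 14 receptors, 6 were neighbours on chromosome 5, which are inherited together within a line and are not separate observations. The median size of the log2 fold change was 0.171 for receptors and 0.064 for other genes. As a sum, however, the families did not separate the linetypes, with 2160 to 2820 CPM of *Vmn1r* genes in HR and 2152 to 2987 CPM in Control males, and 4277 to 6072 and 4093 to 5903 CPM of *Vmn2r* genes. The median log2 fold change was -0.033 for *Vmn1r* and 0.046 for *Vmn2r* genes. Receptor paralogs share sequence, and reads that fit more than 1 place were dropped before counting, so their levels rest on the reads that fit 1 gene only.

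Of the 11 receptor genes on chromosome 5, all tested, 6 had an unadjusted *p* under 0.05, and the neighbours differed in opposite directions. *Vmn2r16* (chr5:109330162-109370247) had 31.2, 32.5, 21.2 and 17.0 CPM in Control lines 1, 2, 4 and 5 and 0.349, 5.200, 0.496 and 3.64 CPM in HR lines 3, 6, 7 and 8. All HR males were below all Control males, and HR lines 3 and 7 were far below HR lines 6 and 8 (log2 fold change -3.41, standard error 0.80, unadjusted *p* = 0.00252, edgeR). The female pools of HR lines 3, 6, 7 and 8 had 0.337, 0.274, 0.646 and 9.65 CPM, so that line 6 was as low as lines 3 and 7 in females but not in males. Next to it, *Vmn2r15* (chr5:109285670-109297644) had 21.9, 19.02, 7.99 and 10.01 CPM in Control and 2.51, 8.46, 4.37 and 5.53 CPM in HR males, with HR line 6 above Control line 4 (log2 fold change -1.50, standard error 0.44). *Vmn2r11* (chr5:109043360-109059569) went the other way, with 24.7, 17.0, 1.54 and 9.12 CPM in Control and 37.1, 60.1, 61.5 and 44.4 CPM in HR males. No HR male was as low as a Control male (log2 fold change 1.94, standard error 0.65, unadjusted *p* = 0.0165, edgeR), but the value of 1.54 CPM in Control line 4 was 22.9 CPM in the female pool of that line. *Vmn2r9* had 8.29, 13.4, 2.81 and 15.5 CPM in Control and 10.62, 50.6, 38.1 and 17.2 CPM in HR males, where HR lines 6 and 7 were the highest in both sexes and HR line 3 lay within the Control range. *Vmn2r12* and *Vmn2r14*, at most 3.38 and 2.31 CPM in males, had log2 fold changes of 0.74 and 0.80. *Vmn2r8* did not pass the unadjusted threshold (log2 fold change 1.62, standard error 1.18), yet it split the Control lines, with 1.31, 1.03, 74.0 and 71.3 CPM in Control lines 1, 2, 4 and 5 against 79.0 to 137 CPM in HR males. The female pools showed the same split, with 1.13, 1.26, 85.0 and 36.8 CPM in these Control lines. The male groups of *Vmn2r8* did not overlap, and this gene was picked out after its values were seen. Within the sets with more and with less lipocalin, the log2 fold change was 3.22 and 1.35 for *Vmn2r11* and -0.72 and -2.03 for *Vmn2r15*.

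The promoter windows of 3 of these neighbours are shown because they are alike in sequence while 1 gene was higher and 2 were lower in HR males. They come from RefSeq (GRCm38.p6), at chr5:109059403-109059702 on the minus strand for *Vmn2r11*, chr5:109297507-109297806 on the minus strand for *Vmn2r15* and chr5:109330131-109330430 on the plus strand for *Vmn2r16*, each written 5′ to 3′ along its gene with the longest stretch common to all 3, of 12 bases, in capitals.
*Vmn2r11*: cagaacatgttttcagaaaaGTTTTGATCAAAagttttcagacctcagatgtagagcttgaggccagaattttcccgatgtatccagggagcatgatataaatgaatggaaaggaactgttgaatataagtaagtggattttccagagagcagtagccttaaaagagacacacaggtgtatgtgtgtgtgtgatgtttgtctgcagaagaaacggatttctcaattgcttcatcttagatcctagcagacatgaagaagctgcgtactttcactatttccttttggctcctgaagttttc
*Vmn2r15*: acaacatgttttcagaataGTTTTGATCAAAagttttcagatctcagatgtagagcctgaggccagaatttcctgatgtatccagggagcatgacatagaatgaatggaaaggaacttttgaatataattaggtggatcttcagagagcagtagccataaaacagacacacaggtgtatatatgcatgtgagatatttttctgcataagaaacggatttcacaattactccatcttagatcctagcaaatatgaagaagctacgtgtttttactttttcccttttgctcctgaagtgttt
*Vmn2r16*: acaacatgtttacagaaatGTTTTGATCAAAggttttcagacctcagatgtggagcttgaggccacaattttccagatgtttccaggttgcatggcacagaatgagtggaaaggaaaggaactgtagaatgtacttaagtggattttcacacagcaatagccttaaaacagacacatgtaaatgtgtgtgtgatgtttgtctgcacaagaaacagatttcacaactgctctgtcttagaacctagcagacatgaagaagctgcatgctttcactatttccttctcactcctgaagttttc
In a global alignment, *Vmn2r11* and *Vmn2r15* were identical at 265 of 303 columns (87.5%), *Vmn2r11* and *Vmn2r16* at 258 of 306 (84.3%) and *Vmn2r15* and *Vmn2r16* at 244 of 306 (79.7%). TATAAA is in the *Vmn2r11* window and not in those of the other two, and it is in 35.9% of 329 receptor windows and in 13.6% of all windows. None of the 3 holds CCAAT, which 53.5% of receptor windows hold, or GGGCGG, which is in 0 of them.

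On chromosome 17, 4 of the 49 receptors tested had an unadjusted *p* under 0.05. *Vmn1r236* (chr17:21282942-21294007), a V1R gene, had 38.9, 15.6, 24.6 and 29.5 CPM in Control lines 1, 2, 4 and 5 and 7.27, 8.92, 11.6 and 11.9 CPM in HR lines 3, 6, 7 and 8. The male groups did not overlap (log2 fold change -1.45, standard error 0.28, unadjusted *p* = 0.000749, edgeR, DESeq2 adjusted *p* = 0.00345). Control line 2 was the lowest Control line in both sexes, and its female pool, at 10.9 CPM, lay within the 4.24 to 11.6 CPM of HR females. *Vmn2r99* (chr17:19361949-19401098) had 81.4, 20.5, 38.0 and 53.2 CPM in Control and 5.21, 20.2, 16.5 and 6.40 CPM in HR males. Control line 2 was again the closest to the HR lines, only just above HR line 6 (log2 fold change -2.0, standard error 0.55, unadjusted *p* = 0.00593, edgeR). *Fpr3*, a formyl peptide receptor gene that overlaps *Fpr2*, had 2.19, 11.6, 1.20 and 6.11 CPM in Control and 13.5, 17.6, 16.2 and 15.4 CPM in HR males. HR males were close together and all above the Control males, among which line 2 was the highest (log2 fold change 1.57, standard error 0.61, unadjusted *p* = 0.0315, edgeR), and in females Control line 2, at 15.2 CPM, lay within the 10.61 to 16.05 CPM of the HR lines. *Fpr-rs4*, chosen after its values were seen, had 0.0558, 2.24, 0.0520 and 0 CPM in Control and 3.02, 2.43, 2.22 and 2.71 CPM in HR males (log2 fold change 2.09, standard error 1.19), so that Control line 2 was at the HR level and the other Control lines were near 0. Within the sets with more and with less lipocalin *Fpr3* gave 2.11 and 1.22 on the log2 scale and *Fpr-rs4* 6.32 and 1.15, the first of the last pair against Control lines at or near 0 counts. *Vmn2r109*, the fourth gene, had 4.89, 1.805, 1.22 and 5.10 CPM in Control and 1.05, 1.51, 1.89 and 1.07 CPM in HR males, with Control lines 2 and 4 within the HR range. For *Vmn1r236*, *Vmn2r99*, *Fpr3* and *Fpr-rs4*, Control line 2 was the Control line nearest to the HR lines in both sexes.

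The other receptor clusters held a smaller share of genes under the threshold than chromosomes 5 (54.5%) and 17 (8.16%). On chromosome 7, 3 of 107 receptors tested had an unadjusted *p* under 0.05, *Vmn2r50* and *Vmn1r63* with higher and *Vmn1r64* with lower levels in HR males and log2 fold changes of 0.57, 0.33 and -0.32. On chromosome 13 it was 1 of 33 (3.03%), *Vmn1r196*. This gene had 38.8, 32.6, 31.3 and 35.9 CPM in Control and 37.5, 61.1, 48.0 and 55.2 CPM in HR males, with HR line 3 within the Control range. On chromosome 6 the count was 0 of 56. Large but uneven differences were also found, picked out after their values were seen, as for *Vmn1r188* on chromosome 13 (log2 fold change -2.64, standard error 1.84) and *Vmn2r23* on chromosome 6 (-1.29, standard error 1.41), neither under the unadjusted threshold. The median size of the log2 fold change was 0.944 on chromosome 5, 0.284 on chromosome 17, 0.17 on chromosome 7, 0.174 on chromosome 13 and 0.134 on chromosome 6, against 0.065 over all genes.

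**Figure D3:**
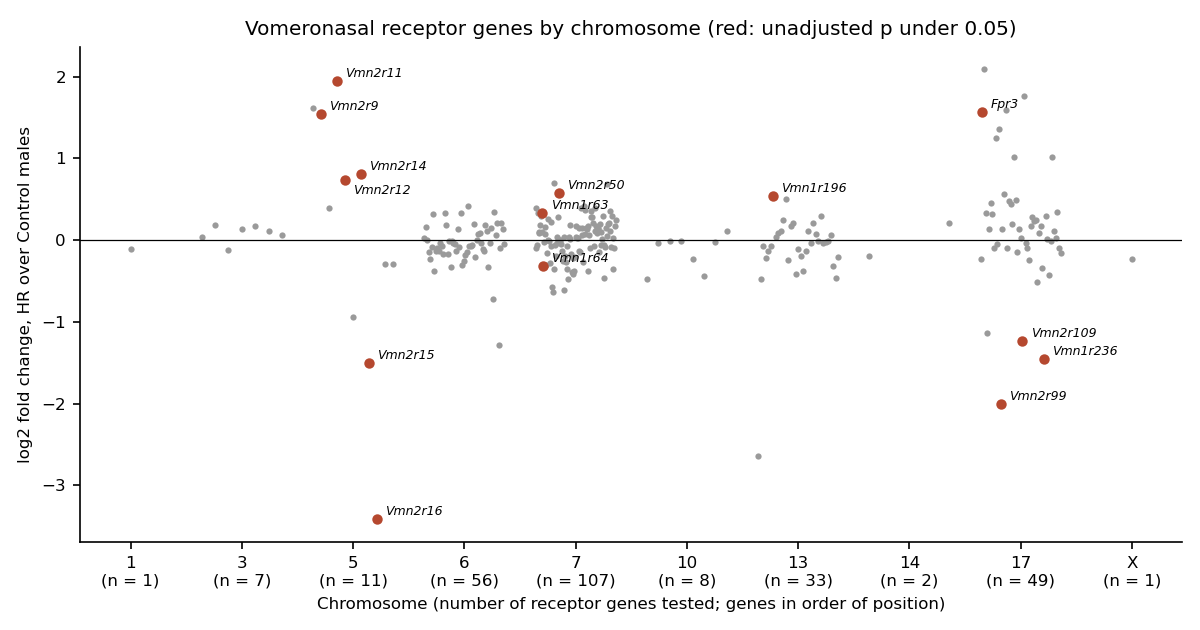
Log2 fold change of HR over Control males for each receptor gene tested, by chromosome and in order of position, with genes of unadjusted *p* under 0.05 in red and named. Chromosome 5 holds both *Vmn2r11* at 1.94 and *Vmn2r16* at -3.41, while the 56 genes on chromosome 6 hold none in red.

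The genes that serve the receptors held few differences. Of 24 genes of vomeronasal transduction tested, 12 lay above and 12 below 0 in log2 fold change, with a median of -0.0069 and 0 with an unadjusted *p* under 0.05. *Gnb1*, a G protein β subunit and the most abundant gene in 2 of the libraries, had 4437 ± 537 CPM in HR and 4526 ± 858 CPM in Control males (SD, n = 4 lines each). Of the 9 *H2-Mv* genes, non-classical MHC genes of basal neurons, 1 was lower in HR males, *H2-M10.4*, with 189, 129.7, 76.5 and 123 CPM in Control and 69.4, 76.2, 68.9 and 118 CPM in HR males, where HR line 8 lay within the Control range. The lists of main olfactory transduction (16 genes tested), neurogenesis and maturation (24) and apical and basal fate (17) had 0 genes under the unadjusted threshold and medians of -0.04, -0.063 and -0.029. Among the 22 synaptic genes, *Cplx1* had an unadjusted *p* under 0.05 and was higher in HR males, and the median log2 fold change of the list was 0.06. In other neuronal lists 1 or 2 genes were under the unadjusted threshold, which 1.12% of all genes passed, with the netrin receptor gene *Dcc* (-1.16) lower among 27 genes of axon guidance, the potassium channel gene *Kcnq5* (-0.72) lower among 82, the metabotropic glutamate receptor gene *Grm8* (1.03) higher among 19, *Pcdhb10* lower (-0.37) and *Pcdhga7* higher (0.42, or 0.73 and 0.12 within the sets with more and with less lipocalin) among 55 clustered protocadherins, and *Btg2* (0.19) higher among 26 immediate early genes, all as log2 fold changes. Of the 29 odorant receptor genes tested, *Olfr461* was higher, at 0.232 to 0.442 CPM in Control and 0.398 to 0.738 CPM in HR males.

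In the list of zinc finger genes, not all of them of the KRAB family, 6 of 347 genes (1.73%, against 1.12% of all genes) had an unadjusted *p* under 0.05. *Zfp677*, *Zfp830*, *Zfp711* and *Zfp40* were higher and *Zfp932* and *Zfp605* lower in HR males. *Zfp830* had 11.4 to 12.5 CPM in Control and 13.1 to 16.4 CPM in HR males, with no overlap in females either (10.53 to 13.6 and 14.96 to 17.9 CPM). *Zfp711* had a log2 fold change below 0 in the limma fits on RPKM, which changed the values, filter, scaling and test together. Of the 2 genes of glia and ensheathing cells with an unadjusted *p* under 0.05 among 15, *Mbp*, the basic protein of myelin, was lower (-0.15) and *Npy* higher (0.52) in HR males. The lists of ER chaperones, cytochrome P450 genes, collagens, motile cilia, antigen presentation, interferon response, blood, skeletal muscle, bone and cartilage, endothelium, supporting cells, hormone receptors, oxidative phosphorylation, ribosomal proteins, histones and dopamine and reward signalling had 0 genes under the unadjusted threshold. Among the 23 immune cell genes it was *Cpa3* alone, and among the 34 conjugation enzymes *Mgst2* alone. The 17 endothelial and mural genes all had a log2 fold change below 0, with a median of -0.21, and summed to 352 to 1151 CPM in HR and 299 to 1360 CPM in Control males, groups that overlapped almost completely. Of 81 ribosomal protein genes, 68 lay above 0 with a median of 0.064, and of 30 histone genes 28 lay below 0 with a median of -0.20. Within the sets with more and with less lipocalin the median was -0.12 and 0.25 for ribosomal protein genes and -0.38 and -0.037 for histone genes.

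A few genes of saliva and of squamous epithelium were higher in HR males, with the highest levels in HR line 3. *Dcpp1* and *Dcpp2*, which encode proteins of saliva, had 101, 3.72, 3.26 and 0.224 CPM and 44.8, 1.54, 1.11 and 0 CPM in HR lines 3, 6, 7 and 8 and at most 3.07 and 1.25 CPM in Control males. HR line 3 had most of it, and without that line the log2 fold change of *Dcpp1* went from 4.92 to 1.39 and that of *Dcpp2* from 4.74 to 0.95. They are near copies of each other, so reads dropped for mapping to both may be missing from either. Of the 20 squamous genes tested, *Krt4*, *Krt13*, *Spink5* and *Lypd3* (20%, against 1.12% of all genes) had an unadjusted *p* under 0.05, all higher in HR males. None of the 20 kept the linetypes apart in CPM, and the list summed to 254 to 419 CPM in HR and 188 to 321 CPM in Control males. *Lypd3* had 0.223 to 0.397 CPM in Control males and 2.30, 0.308, 0.283 and 0.996 CPM in HR lines 3, 6, 7 and 8, with HR lines 6 and 7 in the Control range. *Krt4*, a keratin of lining epithelia, had 0.154, 0.325, 1.20 and 0.348 CPM in Control and 8.60, 0.523, 2.91 and 3.34 CPM in HR males, with HR line 6 in the Control range. *Spink5*, a protease inhibitor of stratified epithelia, had 0.0977, 0.144, 0.442 and 0.232 CPM in Control and 10.29, 0.308, 0.118 and 2.44 CPM in HR males. Among the 21 keratin genes *Krt4* and *Krt13* were the 2 under the unadjusted threshold (9.52%), and among the 24 gland genes *Dcpp1* and *Dcpp2* (8.33%), against 1.12% of all genes. For the 12 secreted lipocalins and the 9 BPI fold proteins, both of gland secretions, the counts were 0. The part of squamous tissue or saliva in these values was not tested.

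These epithelial genes were also among those whose difference was not the same in the sexes. In females *Krt4*, *Spink5* and *Lypd3* were lower in HR lines, with log2 fold changes of -5.15, -6.73 and -4.11, and 1 pool carried the female level: Control line 4 had 84.3 CPM of *Krt4* and 102 CPM of *Spink5* where the other 7 female pools had at most 1.63 and 0.581 CPM. The unadjusted *p* of the sex by linetype interaction was 0.00185 for *Krt4*, 0.00149 for *Spink5*, 0.00748 for *Lypd3* and 0.00305 for *Krt13* (edgeR). With the line as a block, since the male and female pools of a line pair the libraries, it was 0.00200, 0.00415, 0.113 and 0.00779, so that *Lypd3* was no longer under 0.05. Over all genes the interaction gave 0 of 16757 genes with an adjusted *p* under 0.05 and 77 (0.46%) with an unadjusted *p* under 0.05, 14 of which were among the 184 genes of the male comparison. In the blocked fit the counts were 0 and 329. *Hrnr*, an epidermal gene, was one of the 14, at 7.48 CPM in the male pool of HR line 3 and 29.1 CPM in the female pool of Control line 4, with an interaction *p* of 0.00306 in edgeR that was 0.0668 with the block.

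The 14 genes also held *Rn45s*, *Mir6236*, *Lars2* and *Rpph1*. *Rn45s*, the 45S precursor of ribosomal RNA, had 2480, 1106, 1322 and 3468 CPM in Control lines 1, 2, 4 and 5 and 773, 669.9, 549.8 and 502 CPM in HR lines 3, 6, 7 and 8. The males did not overlap (log2 fold change -1.75, standard error 0.36, unadjusted *p* = 0.00120, edgeR, DESeq2 adjusted *p* = 0.00119). In females the groups overlapped, with 2461, 931, 3491 and 416 CPM in the Control and 1789, 3922, 2884 and 3323 CPM in the HR lines and a log2 fold change of 0.71 (standard error 0.58), and the interaction had an unadjusted *p* of 0.00481 (0.0109 with the line as a block). *Mir6236*, annotated as a microRNA gene, had 51.0 to 209 CPM in Control and 21.8 to 45.4 CPM in HR males, and *Lars2*, a mitochondrial leucyl-tRNA synthetase gene, 172 to 769 and 88.1 to 176 CPM, with interaction *p* of 0.00373 and 0.00813 in edgeR. The libraries ranked for these 3 genes alike, Control line 5 the highest and HR line 8 the lowest among males and Control lines 2 and 5 the lowest among females. *Rpph1*, the RNA of RNase P, had 0.260 to 1.12 CPM in Control and 0.149 to 0.279 CPM in HR males, and its interaction *p* in edgeR was 0.0488, or 0.0678 with the block. *Rmrp*, the RNA of RNase MRP, was lower in HR males too (log2 fold change -2.01), and its interaction *p* in edgeR was 0.0533, or 0.0451 with the block. *Lars2*, *Rpph1*, *Rmrp* and *Hrnr* were chosen after their values were seen. Ribosomal RNA was depleted before the libraries were made, and the part of this step in these values was not tested.

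**Figure D4:**
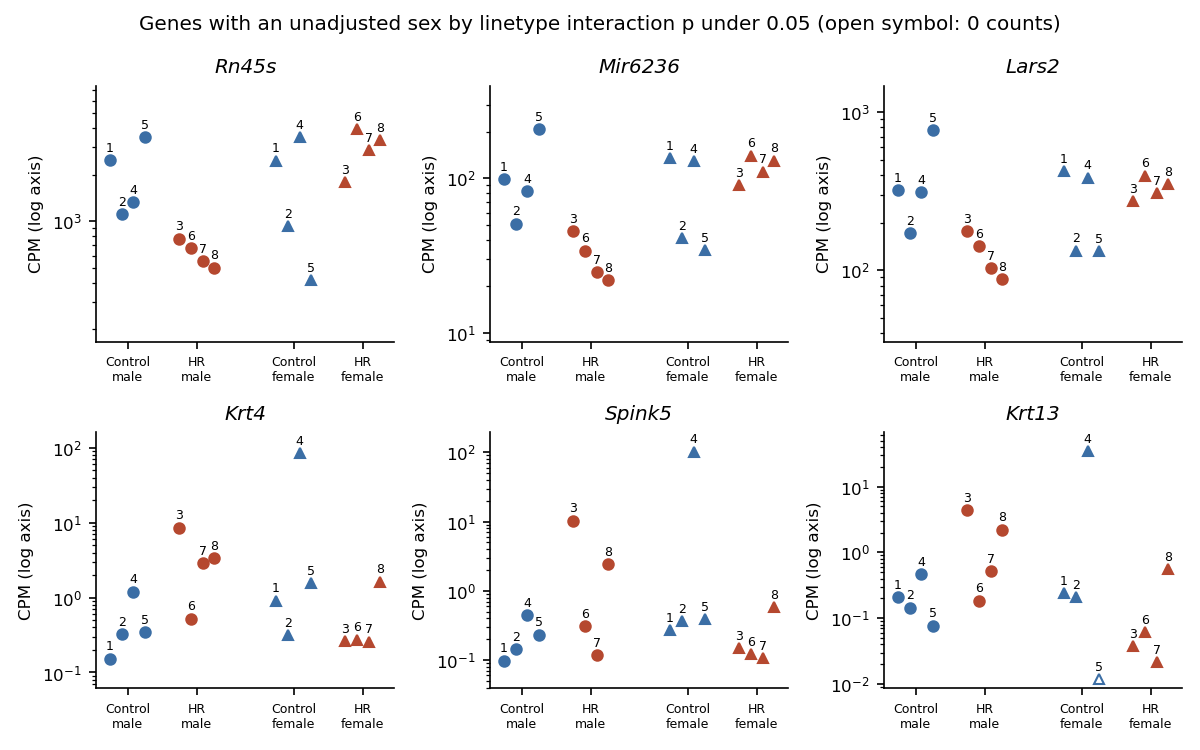
CPM (log axis) of 6 genes with an unadjusted interaction *p* under 0.05 in each line, males as circles and females as triangles, Control lines in blue, HR lines in red, with an open symbol for 0 counts. HR males lie below all Control males for *Rn45s* and *Mir6236*, and for *Lars2* HR line 3 lies just above Control line 2, while HR females lie among or above Control females, and the keratin genes and *Spink5* are highest in HR line 3 among males and in Control line 4 among females.

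For most other genes the females of the same lines gave the same direction. Of the 184 genes, 178 were tested in females, and 151 (84.8%) had the same sign there, against 59.7% of the 16003 other genes tested in both sexes. An unadjusted *p* under 0.05 with the same sign in females was found for 53 of the 178 (29.8%), against 1.29% of the other genes, and with the opposite sign for 4, *Krt4*, *Spink5*, *Lypd3* and *Hrnr*. In females alone, 316 of 16326 genes (1.94%) had an unadjusted *p* under 0.05. The male and female pools of a line share the line's ancestry, so this is a second sample of the same 8 lines and not of new lines. Groups without overlap in both sexes and in the same direction were found for 18 genes, 11 higher (*9430018G01Rik*, *A930041C12Rik*, *Cplx1*, *D030025P21Rik*, *Mgst2*, *Mtap*, *Tubg2*, *Upb1*, *Vmn2r11*, *Zfp677* and *Zfp830*) and 7 lower in HR lines (*5031434O11Rik*, *Ccsap*, *Cit*, *Nrep*, *Rnf17*, *Tmprss7* and *Vmn2r16*). In opposite directions the count was 0.

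**Figure D5:**
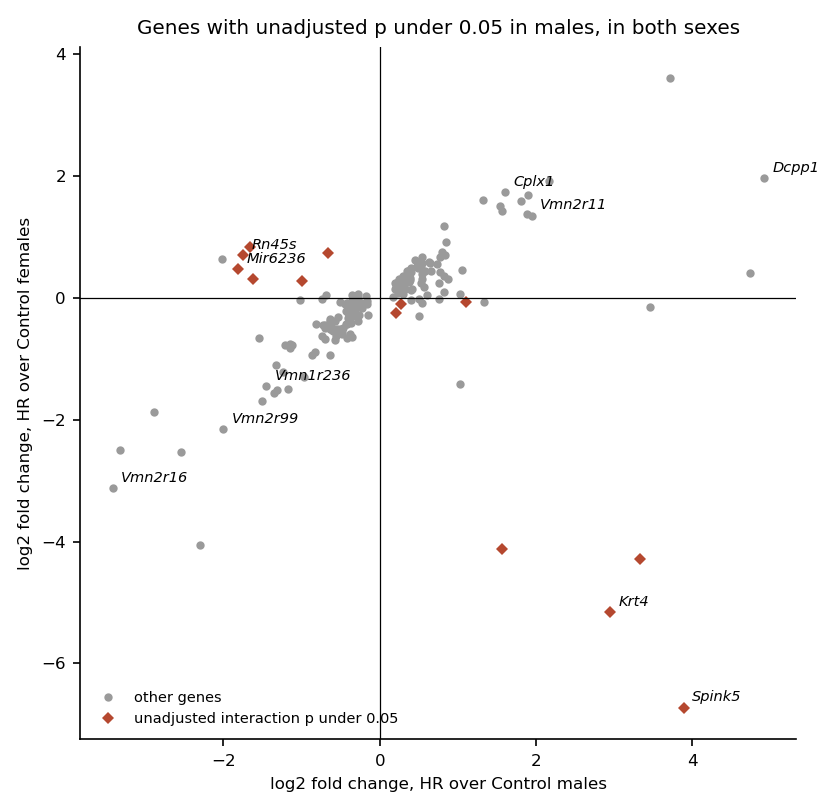
Log2 fold change of HR over Control lines in males (x axis) and females (y axis) for the 178 genes with an unadjusted *p* under 0.05 in males that were tested in females, with red diamonds for an unadjusted interaction *p* under 0.05. Most points lie in the lower left and upper right, 151 of 178, and *Krt4* and *Spink5* at the lower right and *Rn45s* and *Mir6236* at the upper left lie apart.

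Some genes with an unadjusted *p* under 0.05 were neighbours on the chromosomes. Of the 174 with a position, 41 lay in 9 runs of at least 3 such genes whose starts were within 1 Mb of the next. A run begins and ends at such genes by definition, so the share of its genes under the threshold is raised by the way it was drawn. How many runs arise by chance was not tested. The longest, at chr5:107630250-110129794, held 11 of the 38 genes tested there, 6 higher and 5 lower in HR males, with *Cplx1*, *Zfp932*, *Zfp605* and *Tmed5* besides the receptors. A run at chr1:155520173-157568425 held 7 of 18 genes. In it *Fam20b*, a kinase of glycosaminoglycan synthesis, had 116, 113, 102 and 110.0 CPM in Control and 105, 156, 190.5 and 184 CPM in HR males, and *Tor3a*, a torsin ATPase, had 29.7, 28.6, 29.1 and 27.1 CPM in Control and 29.4, 20.6, 13.7 and 13.1 CPM in HR males. For both genes HR line 3 was at the level of the Control lines and HR lines 7 and 8 were farthest from it, and the female pools of HR lines 3, 6, 7 and 8 had 29.2, 17.7, 14.2 and 13.9 CPM of *Tor3a* in the same order of lines. On chromosome 8 *Abcb10*, a mitochondrial transporter, followed the lines in the same way, with 45.7, 36.8, 22.5 and 22.2 CPM in HR lines 3, 6, 7 and 8 and 45.1 to 51.4 CPM in Control males. *Tor3a* had a log2 fold change of -1.11 within the 4 libraries with less lipocalin and of -0.17 within the 4 with more, *Abcb10* of -1.17 and -0.15 and *Fam20b* of 0.73 and 0.30, and HR lines 7 and 8 are both among the libraries with less. In the short run at chr3:51515319-51682677 all 3 genes tested were under the threshold, *Mgst2* higher and *Setd7* and *5031434O11Rik* lower in HR males.

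At chr15:84720052-85062830, *Arhgap8*, a GTPase-activating protein, had 3.00, 3.68, 2.94 and 3.29 CPM in Control and 11.1, 17.4, 16.7 and 3.01 CPM in HR males. HR lines 3, 6 and 7 were all far above the Control lines and HR line 8 was within the Control range, and the female pools repeated this with 8.77, 19.4, 19.8 and 3.62 CPM in HR lines 3, 6, 7 and 8 (log2 fold change 1.9 in males, standard error 0.47, and 1.69 in females, standard error 0.48). *Upk3a* and *Fam118a*, its neighbours, had log2 fold changes of 0.54 and 0.34. On chromosome 11 there were 2 runs. In the first, *Slc46a1* and *Lgals9* were higher and *Rab11fip4* and *Rhbdl3* lower in HR males, and in the second, at chr11:82764345-82871210, all 4 genes tested were under the threshold, *Zfp830*, *Lig3* and *Rffl* higher and *Gm11423* lower, the last with -0.60 and -0.10 on the log2 scale within the sets with more and with less lipocalin. *Lgals9*, the gene of galectin-9, had 45.3, 62.9, 45.6 and 42.7 CPM in Control and 54.8, 64.6, 84.7 and 81.7 CPM in HR males and a log2 fold change of 0.54 (standard error 0.17). The last runs held *Vmn2r109*, *Vmn1r236* and *Zfp677* and, farther along chromosome 17, *Zfp40*, *Dcpp1* and *Dcpp2*. *Lig3* and *Rffl*, *Tor1aip1* and *Tor1aip2*, and *A930041C12Rik* and *Rpap2* overlap on opposite strands, and *Dcpp1* and *Dcpp2* on the same strand, so the reads of each pair may not be fully told apart. Neighbouring genes are inherited together within a line, so the genes of a run are not separate observations.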

How the data were processed

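RNA from pooled VNOs was depleted of ribosomal RNA, made into libraries with a directional kit and sequenced as single-end reads of 75 nt, 8 libraries to a lane. Alignment by the authors was to GRCm38, with STAR 2.6.1d, and they accepted no mismatch and dropped reads that mapped to more than 1 place. The tool that counted reads, its annotation and its use of strand are not given in the sources used here. The deposited table used here holds raw read counts per gene for the 8 male libraries, with 4 summary entries kept out of library sizes and tests (unmapped 16.1% to 17.7% and no feature 16.7% to 18.5% of the reads listed, multi-mapped 0). The deposited RPKM values, from the authors' Cufflinks run per the labels, served only in the alternatives on the log2(RPKM + 1) and log2(RPKM + 0.1) scales.

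The table lists 24411 genes, from which 4 entries of 2 repeated names were left out. Low genes were removed with filterByExpr (minimum count 10; 16361 genes kept), libraries were scaled by TMM, and HR and Control males were compared with edgeR 4.0.16 (quasi-likelihood, R 4.3.3) and Benjamini-Hochberg adjustment at 0.05. Alternatives used DESeq2 1.42.0, limma 3.58.1 and other settings, and some changed more than 1 choice. DESeq2 brought its own scaling and test. The fit with a spread shared by all 16 libraries changed filter and scaling too, and fits without 1 library were filtered and scaled anew. Those on RPKM changed the values, filter, scaling and test together. The female libraries were fitted by themselves, and the interaction was fitted over all 16 libraries. Male and female pools of the same line deviated together from their group means (correlations of 0.312 to 0.701 over 16757 genes in the 8 lines), and the labels give both the same line. The tests were checked on simulated counts. A few genes counted in totals are not reported here by name.

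Genes named are the 15 with the smallest *p* in each direction among non-overlapping genes with a mean of at least 1 CPM, all DESeq2 calls, receptors with an unadjusted *p* under 0.05, up to 6 such members of each gene list, genes in runs, and markers of tissue and sex. The members and the gene lists were chosen with earlier results of these data known. Positions are those of GENCODE on GRCm38 and promoters those of RefSeq. The p-values measure the spread between lines, each seen through 1 pool, and reads carry no molecular identifiers. Library depth, 28962284 to 67406690 counts on genes, leaves counts near 10 as the limit for low genes such as *Cplx1*.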

Additional observations from a re-analysis of the deposited data

Results flagged for a closer look

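In 11 of 160 groups of 4 lines (80 genes in both linetypes), 1 line lay far from the other 3 of its linetype among the named genes, by the gap to its nearest neighbour divided by the range of the 4 lines on the log2 scale and compared with Dixon's 95% limit for 4 values. Chance alone gives such a gap in about 1 of 20 groups, which is near the rate seen. *Upb1* in HR line 3, at 0.302 CPM, had a ratio of 0.891, and the female pool of this line had 0.225 CPM. Control line 2 stood apart for *Pcdhb10* (ratio 0.980, 3.84 CPM), *Btg2* (0.917, 36.6 CPM), *Gm5532* (0.882, 0.271 CPM) and *Sec16b* (0.877, 20.7 CPM). Control line 4 did so for *Abl2* (0.941, 28.8 CPM) and *Rab11fip4* (0.882, 39.7 CPM). The ratio was 0.898 for *2700094K13Rik* in HR line 6 (6.12 CPM), 0.872 for *Kcnq5* in HR line 3 (3.14 CPM), 0.871 for *Ccsap* in HR line 7 (9.35 CPM) and 0.858 for *4833418N02Rik* in HR line 8 (7.12 CPM).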

How the results depend on the processing

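Against 0 genes with an adjusted *p* under 0.05 in edgeR, DESeq2 gave 10, limma on log2(RPKM + 1) 1 and on log2(RPKM + 0.1) 1 (*Snord8*, lower), the 4 libraries with more lipocalin 1 and the 4 with less 4 (*Upb1*, *Vmn2r8*, *Nsg2* and *5430401F13Rik*), while leaving out 1 library gave 0 to 1, the 1 being *Upb1* without HR line 3. Size factors by RLE, no filter, a minimum count of 30, limma-voom, a spread shared by all 16 libraries and a term for the lipocalin set each gave 0. The 184 genes with an unadjusted *p* under 0.05 became 326 with no filter, 354 with the lipocalin term, 801 and 574 within the libraries with more and with less lipocalin, 142 to 274 without 1 library and 156 to 207 under the other alternatives. The alternatives by lipocalin level were chosen after seeing the data, and fits within 4 libraries hold 2 lines a group. Of 1504 values of 80 named genes under alternatives, 2 turned in sign, both for *Zfp711*, at -0.047 on the log2(RPKM + 1) and -0.071 on the log2(RPKM + 0.1) scale, 1114 kept an unadjusted *p* under 0.05 and 12 passed the adjusted threshold. None of 451 list medians under RLE, DESeq2, the shared spread or without 1 library moved by more than the spread between lines. The fits within the lipocalin sets were not part of this count. In them some medians changed sign, as for the secreted lipocalins, at 1.02 with more and -1.19 with less lipocalin. The cause of these changes was not tested.

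With the line as a block that pairs male with female libraries, the interaction gave 0 genes with an adjusted *p* and 329 with an unadjusted *p* under 0.05, against 77 without it, 69 by DESeq2, 270 with no filter and 75 to 112 without 1 line. A line belongs to 1 linetype, so the block could not be fitted to the comparison within males. With 4 pools per linetype, low counts and 1 pool per line set the limit: *Upb1* had 2 to 534 and *Fpr-rs4* as few as 0 counts in a library.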

Other observations

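Genes outside the rule for named genes are given here by their levels only, chosen after their values were seen. *Snord8*, a small nucleolar RNA, had 0.181, 0.126, 0.338 and 0.155 CPM in Control lines 1, 2, 4 and 5 and 0.186, 0.0923, 0.0945 and 0.174 CPM in HR lines 3, 6, 7 and 8, groups that overlapped, while its RPKM passed the adjusted threshold. *Nsg2*, a neuronal vesicle protein gene, had 54.7, 64.5, 18.7 and 9.47 CPM in Control and 41.6, 21.1, 11.5 and 11.3 CPM in HR males, with Control lines 1 and 2 and HR line 3 above the rest. The other receptors of the chromosome 5 cluster with an unadjusted *p* over 0.05, besides *Vmn2r8*, were *Vmn2r10*, *Vmn2r13* and *Vmn2r17*, with log2 fold changes of 0.39, -0.94 and -0.30 (standard errors 0.55, 0.77 and 0.19).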
